A study of Mus musculus with 15 samples.

Results

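The trimethyl mark on lysine 4 of histone H3 (H3K4me3) was mapped by native chromatin immunoprecipitation and sequencing (ChIP-seq) of about 20000 amygdala nuclei per sample. The series holds 15 samples from adult male mice of an F1 129xB6 background: 2 WT, 3 Kmt2a-HET, 3 Kdm5c-KO and 3 DM (double mutant) H3K4me3 samples and 1 input per genotype. Kmt2a encodes an enzyme that writes H3K4 methylation and Kdm5c an enzyme that removes it. The values below come from the WT samples alone, because the summits were deposited as 1 list for both WT mice. There was therefore no spread between mice, no genotype comparison and no test of a difference. The amygdala holds neurons, glia and vessel cells, and in a list from whole tissue fewer cells with the mark and less mark per cell cannot be told apart.

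The regions described are the WT summits at gene 3′ ends. A summit is the 1-bp position of highest signal that MACS2 gave to a peak, and its score was read as −log10 of the q-value, so a higher score is a more certain peak and not a direct measure of mark per nucleosome. Of 24132 summits on chromosomes 1 to 19 and X, 580 lay at gene 3′ ends, which is 2.40% (95% Wilson interval 2.22% to 2.60%). To be counted, a summit had to be more than 1 kb from every annotated transcription start site (TSS) of GENCODE M21 on GRCm38. It also had to lie in the 3′ UTR of a coding transcript, or outside every transcript and within 3 kb downstream of a transcript end. The first kind held 223 summits and the second 357. A 3′ UTR of the first kind could end far before the outermost end of its gene. All intervals given for shares are 95% Wilson intervals, which cover counting error only.

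H3K4me3 is known for marking the first nucleosomes after active or poised starts of transcription, most of all at CpG-rich promoters, and it falls off along the gene body. An annotated gene end is not a place where it is usually described. The start of another gene can lie there, however, and this includes genes read by RNA polymerase III. That polymerase transcribes tRNA genes, whose promoter lies inside the gene as an A box and a B box bound by the factor TFIIIC.

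Several of the highest-scoring summits lay beside tRNA genes, and the B box is the part of those genes that shows what they are. The lines below give 30 bases of the 9 tRNA genes beside summits that scored no lower than the list median and in which B box letters were found. They were read 5′ to 3′ on the tRNA gene's strand from the GRCm38 genome of RefSeq. Capitals mark a match to GTTCAANNC or GTTCGANNC on the gene's own strand. The protein-coding gene or pseudogene whose end holds the summit is named with each. The letters were found in 92.1% of the 403 tRNA genes (median length 72 bp) and in 0.394% of windows of that length centred on all summits, read on the forward strand. In n-TGgcc2, beside the Clec18a summit, they were not found.
n-TCgca54 (tRNA-Cys, Arl5c, chr11:97988925-97988954, minus strand): agaggtccccgGTTCAAATCcgggtgcccc
n-TLtag3 (tRNA-Leu, Hes7, chr11:69124291-69124320, plus strand): cggaggcgtggGTTCGAATCccaccgctgc
n-TPcgg2 (tRNA-Pro, Gm18407, chr1:165642273-165642302, minus strand): agaggtcccggGTTCAAATCccggacgagc
n-TTtgt3 (tRNA-Thr, Olfr750, chr14:51065170-51065199, minus strand): aggggtcgcgaGTTCAAATCtcgctggggc
n-TEttc1 (tRNA-Glu, Ccdc115, chr1:34434814-34434843, minus strand): aggcggcccggGTTCGACTCccggtatggg
n-TWcca6 (tRNA-Trp, Borcs6, chr11:69063497-69063526, minus strand): gaaggttgcgtGTTCAAATCacgtcggggt
n-TSaga4 (tRNA-Ser, Ctc1, chr11:69037527-69037556, plus strand): tccccgcgcagGTTCGAATCctgccgacta
n-TRtcg4 (tRNA-Arg, Mrpl58, chr11:115413820-115413849, plus strand): gaagattgaggGTTCGAGTCccttcgtggt
n-TIaat15 (tRNA-Ile, Vmn1r-ps135, chr13:23270423-23270452, minus strand): cgaggttgtgaGTTCGAGCCtcacctggag

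The other set of sequences shows what CpG-rich means at a summit. The lines give the 30 bases centred on the summits of the 5 CpG-rich members downstream of a transcript end with the highest ratio of observed to expected CpG, with each CpG in capitals, on the strand of the named gene. CpG-rich was set as a GC content of at least 50% and a ratio of at least 0.6 over the 500 bp centred on the summit. The ratios were 1.02 at Hist1h4m (a histone H4 gene), 0.959 at Tank (an adaptor of TRAF signalling), 0.936 at Fbxw2 (an F-box protein), 0.931 at Mrpl58 (a protein of the mitochondrial ribosome) and 0.922 at Ankrd45.
Hist1h4m (chr13:21813385-21813414, plus strand): agCGgcttCGggggccCGttttgtggccca
Tank (chr2:61656485-61656514, plus strand): ggcagcagCGttCGcctgctgaaCGgtgac
Fbxw2 (chr2:34802520-34802549, minus strand): ccCGgtcctttcacacCGCGgagCGccctc
Mrpl58 (chr11:115413567-115413596, plus strand): tccaaccCGCGggcacagaggctgaccaga
Ankrd45 (chr1:161170731-161170760, plus strand): gctcctgcccagCGacttcccCGaggagcc

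Of 19 marker genes of neurons, astrocytes, oligodendrocytes and endothelium, 17 (89.5%) carried a summit no farther than 1 kb from one of their own TSSs. The share was 65.2% over all protein-coding genes, 88.0% in zinc finger Zfp genes and 0.274% in olfactory receptor genes. The count alone therefore does not identify the tissue. The 5 neuronal markers held the highest promoter scores among the marker genes, from 218.8 at Rbfox3 to 284.3 at Map2. Olig1 and Sox10, markers of the oligodendrocyte lineage, had none. The single summit of Olig1 lay in its 3′ UTR.

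Most summits at gene 3′ ends were low in the list. Their median score was 12.2 (interval from order statistics 11.1 to 14.98; quartiles 6.20 and 37.9), and the scores ran from 1.76 to 292.7. The summits in 3′ UTRs had a median of 10.6 (8.63 to 13.05) and those downstream of transcript ends 14.3 (11.7 to 17.98), so the intervals overlapped. Summits within 1 kb of a TSS had a median of 165.2, those in introns 9.05, those in other exons 17.1 and those between genes 15.4. At gene 3′ ends 252 of 580 summits (43.4%) scored below 10, and the 5 lowest, downstream of Klf2, Foxd2, Foxc1, AC107664.2 and Gm37372, scored between 1.76 and 1.84.

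The upper tail held a small share of the members. The median of the whole list was 102.3, and 49 summits at gene 3′ ends (8.45%, 6.45% to 10.99%) reached it. The background was 50% of all summits by construction and 9.35% of summits outside promoters. The share was 8.97% in 3′ UTRs and 8.12% downstream of transcript ends, so neither kind stood apart from the background by its interval. In the plot of scores by position, the boxes of both kinds lie beside those of introns and intergenic regions and far under that of promoters.

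**Figure D1:**
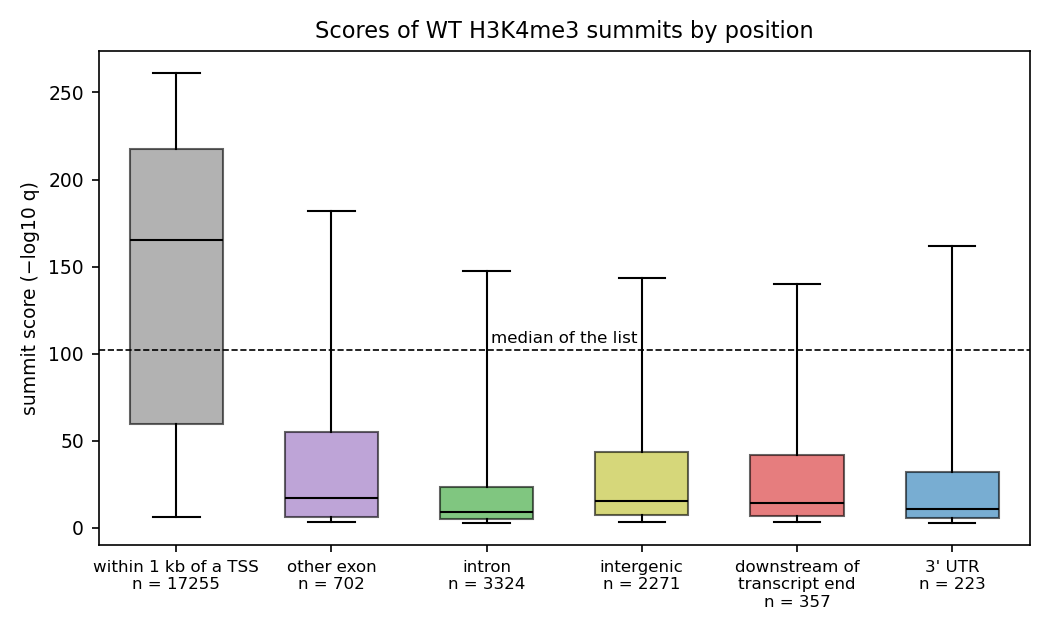
Scores (−log10 of the q-value) of WT H3K4me3 summits by position. Boxes span the quartiles with the median as a line, whiskers run from the 5th to the 95th percentile, and the dashed line is the median of the whole list; the medians were 10.6 in 3′ UTRs and 14.3 downstream of transcript ends, against 165.2 within 1 kb of a TSS.

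Gene ends held more summits per length of sequence than introns or the regions between genes. The 3′ UTRs open to the rule covered 33.9 Mb with 6.58 summits per Mb, and the downstream regions covered 86.5 Mb with 4.13 per Mb. Introns held 3.29 per Mb, intergenic regions 1.86, other exons 14.1 and the regions within 1 kb of a TSS 110.01. By chromosome, the share of summits that lay at gene 3′ ends ranged from 1.56% on chromosome 8 to 3.51% on chromosome 11, which held 64 of the 580.

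The 18 summits within 500 bp of a tRNA gene made up 3.10% of the members (1.97% to 4.85%). The background was 0.522% of all summits and 1.45% of summits outside promoters, and 2.99% of intergenic summits lay as near a tRNA gene. Of the 18, 16 were downstream of a transcript end and 2 in a 3′ UTR. They lay at 17 different tRNA genes of the 403 in RefSeq, 142 of which (35.2%) had any WT summit within 500 bp. The distance of 500 bp was chosen after the positions of the top summits had been seen.

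The median score of these 18 was 152.2 (quartiles 17.2 and 203.5), and 10 of them (55.6%, 33.7% to 75.4%) reached the median of the list. They supplied 4 of the 10 highest scores at gene 3′ ends and 8 of the 20 highest. Without them, 39 of the remaining 562 summits (6.94%, 5.12% to 9.35%) reached the list median. Intergenic summits beside tRNA genes had a similar median, 160.5 over 68 summits.

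The highest of the group scored 261.1 and lay 822 bp past the end of Arl5c (chr11:97988756), a gene of the ARF-like GTPase family, and 167 bp from n-TCgca54. The best promoter summit of Arl5c scored 36.6. The summit in the 3′ UTR of Hes7 (chr11:69123964), a repressor of the segmentation clock, scored 238.1 and lay 277 bp before the 5′ end of n-TLtag3. The one at Clec18a (chr8:111062293), a C-type lectin gene, scored 235.0 and lay 268 bp before n-TGgcc2. Neither Hes7 nor Clec18a had a summit within 1 kb of its own GENCODE TSSs. RefSeq also holds a start of Hes7 that lay 908 bp from a summit of 133.1 and 198 bp from one of 5.31.

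An olfactory receptor gene and 2 pseudogenes were among those whose ends held such a summit. The olfactory receptor gene Olfr750 had a summit of 204.0 downstream (chr14:51065513), 273 bp before n-TTtgt3, and the pseudogene of a pheromone receptor, Vmn1r-ps135, one of 115.3 (chr13:23270693), 177 bp before n-TIaat15. The processed pseudogene Gm18407 had one of 234.2 (chr1:165642598), 256 bp before n-TPcgg2. None of these 3 had a promoter summit.

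The others of the group that reached the list median lay at genes with marked promoters. Ccdc115 had a summit of 202.1 downstream and a promoter summit of 276.5. At Borcs6, a subunit of the lysosome-positioning complex BORC, the downstream summit scored 194.1 and the promoter summit 226.6. At Ctc1, a telomere-binding protein, the values were 192.8 and 189.1, and at Mrpl58 they were 189.1 and 221.9. The remaining 8 summits, at Gpx6, Gm11335, Per1, Gm12184 (2 summits), Gm11290, Gm11279 and 9130213A22Rik, scored from 5.31 to 89.2.

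The summits kept a distance from the tRNA genes. The gap between summit and tRNA gene ranged from 118 to 479 bp with a median of 248 bp, and no summit fell inside a tRNA gene. Of the 18, 14 lay before the 5′ end and 4 past the 3′ end. Of the 10 that reached the list median, 9 lay 177 to 288 bp before the 5′ end, and the Arl5c summit lay past the 3′ end. In the plot of position against the tRNA gene, these 9 form a narrow group on the upstream side.

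**Figure D2:**
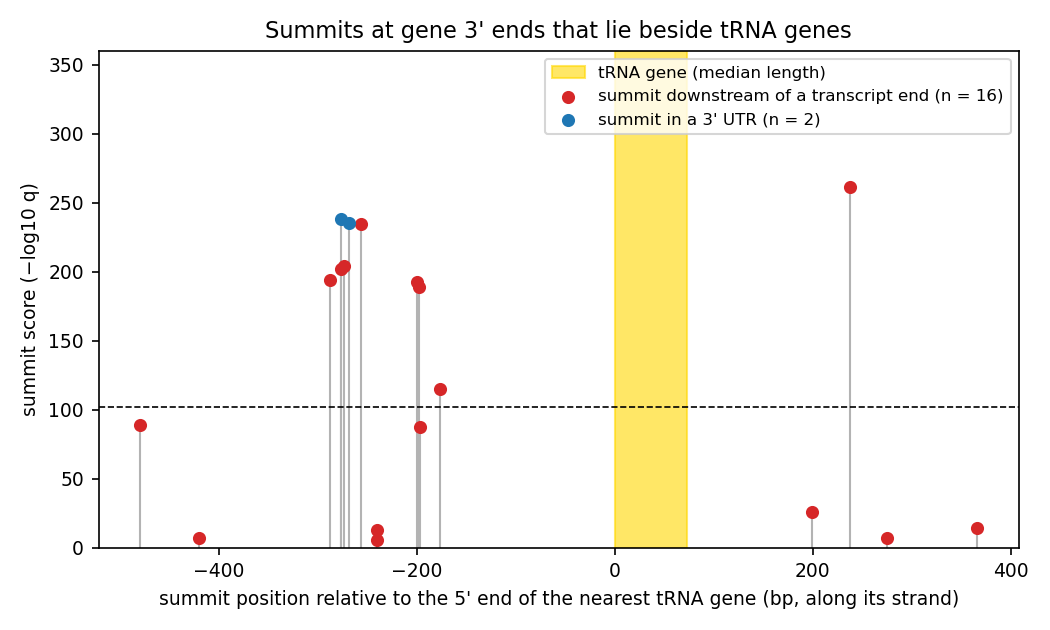
Scores (−log10 of the q-value) of the 18 summits at gene 3′ ends that lay within 500 bp of a tRNA gene, against their position in bp from the tRNA gene's 5′ end along its strand. The yellow band is a tRNA gene of median length and the dashed line the median of the whole list; 14 summits lie before the gene and 4 past it.

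A further 45 summits were not beside a tRNA gene but lay within 1 kb of a transcript start that RefSeq holds and GENCODE M21 does not place within 1 kb of them. With the 2 that were also beside a tRNA gene, 47 of 580 (8.10%, 6.15% to 10.6%) lay near such a start, against 12.1% of all summits outside promoters. The median score of the 45 was 24.9 (quartiles 7.51 and 57.7), and 6 (13.3%) reached the list median. The nearest RefSeq start carried a symbol other than the assigned gene's in 44 of 45 cases and lay on the opposite strand in 26. Symbols were compared as written, so a gene named differently in GENCODE and RefSeq is among the 44. It belonged to a long non-coding RNA in 27 cases and to an mRNA in 15.

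The summit downstream of Tmem183a (chr1:134344379) scored 192.1 and lay 173 bp from a RefSeq start of Ppfia4, which encodes a liprin of the presynaptic active zone. Downstream of the lincRNA Gm49263 (chr15:36727741) the score was 162.8, with a start of Gm41297 at 570 bp. The summit past D030055H07Rik (chr9:106160336) scored 152.6 and lay 178 bp from a start of Glyctk, a glycerate kinase. The summit past 9130213A22Rik (chr11:69117998) scored 133.1, with a start of Hes7 at 908 bp, and the one past A230052G05Rik (chr8:70865604) scored 127.9, with a start of Kcnn1, a calcium-activated potassium channel, at 87 bp. In each of these 5 cases the summit counted as a gene end in GENCODE and as the neighbourhood of a start in RefSeq.

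The most certain summit at any gene 3′ end lay on a short gene without introns. Rhob, a small GTPase, had 1 summit, at chr12:8498953, in its 3′ UTR, with a score of 292.7, above 99.5% of the list. It lay 1056 bp from the TSS of the gene, just past the 1 kb limit, and 1292 bp before the transcript end. Rhob had no summit nearer to its TSS.

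Several other high members shared most of this layout. Ccdc71l (219.0, 1136 bp from its TSS), the linker histone gene Hist1h1c (215.3, 1222 bp), the immediate early gene Ier5 (210.8, 1461 bp), the connexin gene Gjd3 (210.7, 1024 bp) and Sft2d3 (207.7, 1268 bp) each have 1 exon and had no promoter summit. The Gjd3 summit lay 188 bp past the end of its gene, and the others lay in 3′ UTRs. Of the 49 members that reached the list median, 40 were assigned to protein-coding genes, and 16 of these had no promoter summit. The plot of summits along genes shows Rhob, Ier5, Olig1 and Hist1h1c each with 1 summit, inside the gene and more than 1 kb from its TSS.

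Genes without introns were more frequent among the genes at these summits than among all genes. Of the 392 protein-coding genes with a summit at their 3′ end, 59 (15.1%, 11.9% to 18.9%) had no intron. The background was 7.05% of all protein-coding genes, 6.43% of those without olfactory receptor genes and 3.03% of genes with a promoter summit. The genes were also shorter, with a median of 11919 bp (quartiles 4974 and 36382) against 17414 bp (6565 and 45521). In a short gene the 3′ UTR is near the TSS, and the nearest TSS of a member was that of its own gene for 146 of 223 summits in 3′ UTRs and 219 of 357 downstream.

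The members were also grouped by the distance to a TSS. A TSS of the assigned gene lay within 3 kb of 141 summits (24.3%), which were neither beside a tRNA gene nor near a RefSeq start. Their median score was 9.92, and 14 of them (9.93%) reached the list median. The TSS of another gene lay within 3 kb of 41 summits, with a median of 9.08 and 3 at or above the list median. The other 335 summits (57.8%) lay more than 3 kb from every GENCODE TSS and had a median of 12.9, with 16 (4.78%) at or above the list median. RefSeq starts were excluded from this class only within 1 kb, so some of the 335 had one nearer than 3 kb. The summit at AC122253.1, for example, lay 1283 bp from a RefSeq start.

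Score did not fall steadily with the distance to the nearest TSS. The median was 10.8 for the 50 summits at 1 to 1.5 kb, 11.1 for the 57 at 1.5 to 2 kb and 9.08 for the 107 at 2 to 3 kb. It was 14.2 for the 147 at 3 to 5 kb and 13.7 for the 124 at 5 to 10 kb. Farther out it was 20.6 for the 70 at 10 to 20 kb and 13.2 for the 25 beyond. Summits at or above the list median were most frequent in the nearest bin, with 13 of 50, against 5 of 57 in the next. They numbered 2 of 70 at 10 to 20 kb and 1 of 25 beyond. Just inside the limit of 1 kb lay Pitpnm3 (1001 bp, score 108.6), Zfp236 (1011 bp, 11.1) and Gjd3 (1024 bp, 210.7), and just outside it Inafm2 (999 bp, 152.6), Vipr1 (991 bp, 12.7) and Hspb3 (990 bp, 6.20).

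**Figure D3:**
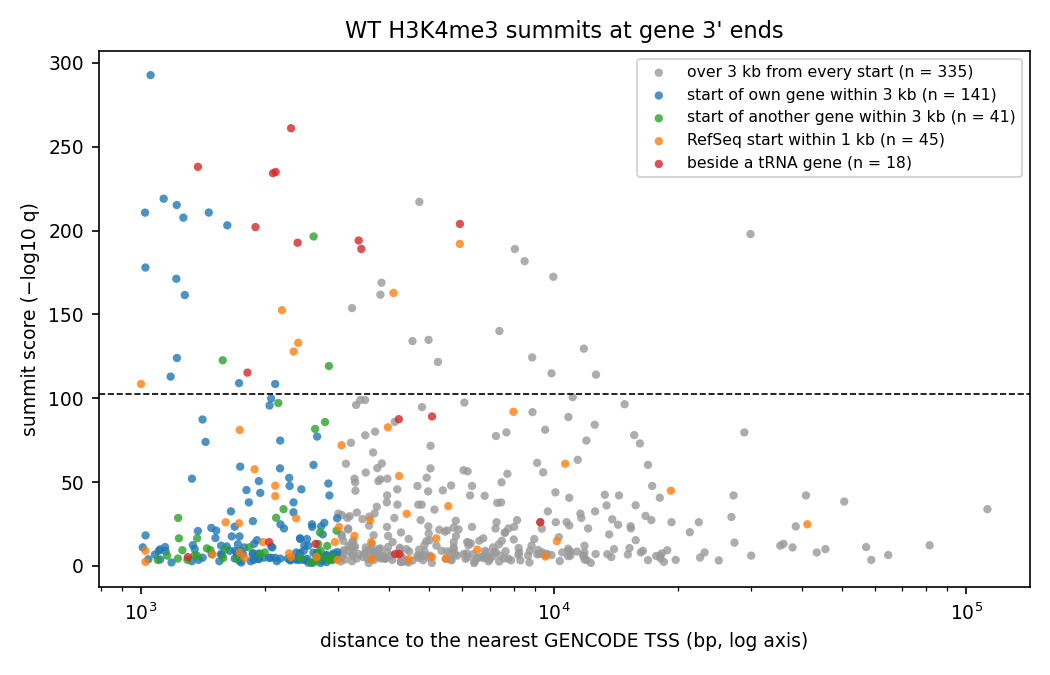
Scores (−log10 of the q-value) of the 580 summits at gene 3′ ends against the distance to the nearest GENCODE TSS in bp (log axis), coloured by what lay nearby. The dashed line is the median of the whole list; 49 summits reach it, 10 of them beside tRNA genes.

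Among the 335 summits more than 3 kb from every GENCODE TSS, the highest scored 217.2. It lay 2721 bp past Gm37078 (chr3:65974643), a transcript of unsettled type. The next, of 197.9, lay 938 bp past a transcript of Tmem44 (chr16:30510917), 29992 bp from the nearest TSS, while the promoter of that gene reached 133.1. The 3′ UTR of Zbtb7b (chr3:89378681), a zinc finger factor of T-cell commitment, held one of 181.8, against 102.6 at its promoter. St3gal2, a sialyltransferase, had one of 172.5 in its 3′ UTR and Rpl12, a protein of the large ribosomal subunit, one of 168.9 downstream, both under the values of 229.2 and 215.3 at their promoters.

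Not every 3′ UTR in the count belongs to a transcript annotated as protein-coding. Of the 223 summits in 3′ UTRs, 184 (82.5%) lay in the UTR of such a transcript, and the others lay in UTRs of other coding transcripts, such as those marked for nonsense-mediated decay. The summit of Rin2 (203.2) was of this second kind and lay 26592 bp before the end of its transcript, 1620 bp from a TSS of the gene. Those of Clec18a, Fam172a (189.1) and 1700067K01Rik (178.0) also lay in UTRs of transcripts marked for decay.

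Within the UTRs the summits were spread out. The distance to the transcript end had a median of 961 bp (quartiles 395.5 and 1897.5), and 926.5 bp in the transcripts annotated as protein-coding. The largest was 142566 bp, at Runx2. These distances are to the end of the assigned transcript, which was not always the end of the gene. At Bcl2 the summit lay 459 bp before a transcript end but 2381 bp from a TSS, in a gene of 176097 bp. Downstream of transcript ends the 3 kb were filled evenly, with 125 summits in the first kb, 117 in the next and 115 in the last.

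A gene with a summit at its 3′ end had a promoter summit in most cases. Of the 392 protein-coding genes, 298 (76.0%, 71.6% to 79.98%) had a promoter summit, against 65.2% of all 21755. These 392 were 1.8% of all protein-coding genes. For the 341 members whose protein-coding gene had a promoter summit, the median score was 11.1 at the 3′ end and 169.6 for the highest summit at the promoter. In 20 of the 341 (5.87%) the 3′ end scored above every promoter summit of the gene, among them Arl5c, Rin2, Tmem44, Ctc1, Tmem183a, Zbtb7b and the linker histone gene Hist1h1b (74.0 against 27.3).

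Summits at gene 3′ ends lay in CpG-rich windows more often than gene ends in general, and the CpG-rich ones had higher scores. Of the 580 summits, 135 (23.3%, 20.02% to 26.9%) lay in CpG-rich windows, against 48.6% of all summits and 17.8% of summits outside promoters. The share was 21.5% in 3′ UTRs, 24.4% downstream, 60.8% within 1 kb of a TSS, 11.1% in introns, 42.0% in other exons and 18.8% between genes. Of 19042 ends of protein-coding genes more than 1 kb from a TSS, 0.452% were CpG-rich by the same measure. Position was not matched in this comparison. The summits in 3′ UTRs lay a median of 961 bp before a transcript end and the downstream ones 1426 bp past it. The 5 highest ratios of observed to expected CpG among the members, from 1.04 to 1.15, were at Otud7a (a deubiquitinase, 2 summits), Tbx1, Sft2d3 and Per1.

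The CpG-rich members had a median score of 37.9 (quartiles 10.99 and 88.9), and 27 of 135 (20%) reached the list median. The other 445 had a median of 10.1 (5.59 and 26.1), and 22 (4.94%) reached it. Without the members beside tRNA genes the medians were 35.1 and 9.92. The same order was found in introns (42.0 against 8.07), in other exons (34.7 against 10.1), between genes (43.5 against 13.2) and at promoters (185.3 against 96.9).

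**Figure D4:**
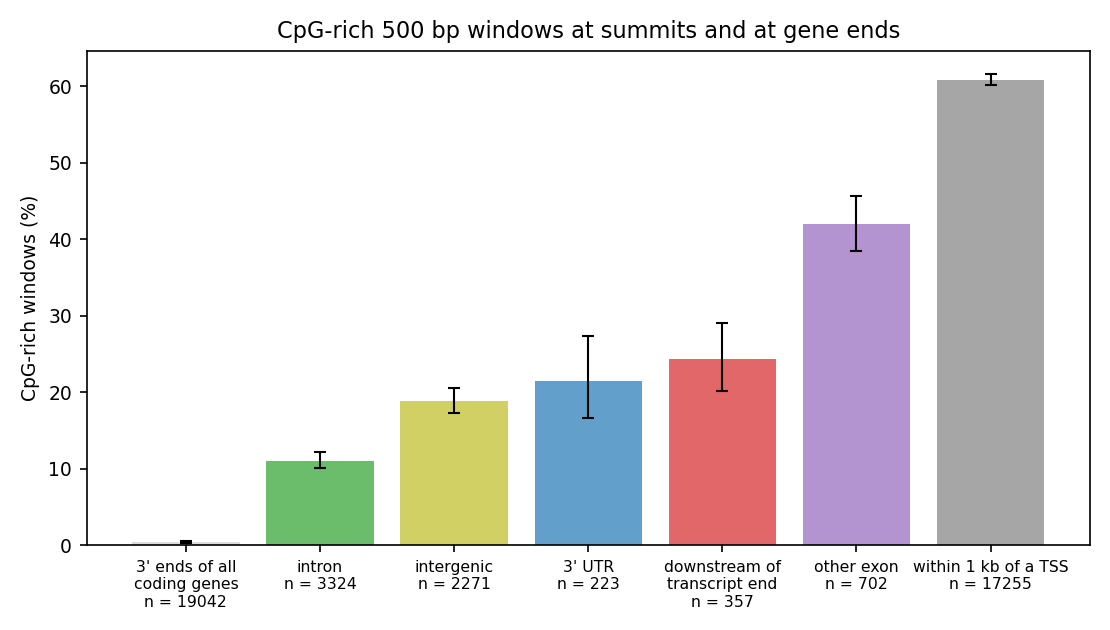
Share of 500 bp windows that were CpG-rich (%), at the 3′ ends of all protein-coding genes more than 1 kb from a TSS and at WT summits by position. Error bars are 95% Wilson intervals; the shares were 0.452% at gene ends in general, 21.5% at summits in 3′ UTRs and 24.4% at summits downstream of transcript ends. Gene ends in general and summits were not matched for distance to the transcript end.

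Among other sequence measures, the GC box was more frequent than at other summits outside promoters. The summit base was in a repeat-masked stretch at 45 of 580 members (7.76%), against 8.36% of all summits outside promoters. In the 300 bp centred on the summit, the GC box GGGCGG was found on either strand at 26.6% of the members (23.1% to 30.3%), 21.2% of summits outside promoters (20.3% to 22.2%) and 39.6% of promoter summits. CCAAT was found at 24.3%, 27.6% and 20.7%, TATAAA at 9.14%, 9.87% and 3.97%, and the AP-1 letters TGACTCA at 5.17%, 4.77% and 2.74%. The E-box CACGTG was found at 6.21%, 6.21% and 5.25%, CCGCGC at 13.6%, 11.7% and 29.2%, and GCATGCGC, part of the NRF1 motif, at 1.38%, 1.28% and 0.846%. The polyadenylation signal AATAAA was found at 23.3% of the summits in 3′ UTRs and 15.97% of those downstream, against 18.9% of summits outside promoters. The letters of these motifs do not contain one another.

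Summits at the 3′ ends of transcription factor genes of development had low scores. Of 211 homeobox, Sox, Fox, Pax, T-box and related genes in the list used, 25 (11.8%) had a summit at the 3′ end, 36 summits in all, beside the 1.8% over all protein-coding genes. Their median score was 5.34, 29 of the 36 scored below 10 and none reached the list median. The highest were Pou3f1 (52.5), Foxc1 (45.7) and Sox21 (45.3), and 20 of the 25 genes had a promoter summit. More than 1 summit at the 3′ end was found in 7 of the 25 (28%), against 43 of all 528 genes with such a summit (8.14%).

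Foxc1 and Foxd1, forkhead factors of mesenchyme and kidney, had 4 summits each. On Foxc1 the scores were 68.6 at 891 bp from the TSS, then 45.7, 21.6, 1.80 and 4.11 at 4180, 5285, 6422 and 7002 bp. On Foxd1 they were 27.4 and 15.4 within 1 kb of the TSS and 15.4, 7.12, 4.45 and 3.01 beyond it, out to 4406 bp. In Foxd1 the score fell or stayed level at each step away from the start, and in Foxc1 it did so up to the last summit.

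Of all genes with such a summit, 485 had 1, 36 had 2, 5 had 3 and the 2 forkhead genes had 4. The nuclear receptor gene Nr2f2 had 3, of which the one downstream of the gene scored 99.02 and those in the 3′ UTR 2.84 each. Pcdh20, a protocadherin, had 71.7 between summits of 10.1 and 2.84. Nog, an antagonist of BMP signalling, had 11.1, 18.8 and 13.2 past its end and 147.8 at its promoter, while Id3, an inhibitor of bHLH factors, had at most 8.07 past its end and 110.3 at its promoter. On Myo1d, an unconventional myosin, the 3 summits of the 3′ UTR scored 3.83 to 7.15. Genes with 2 included Ctc1, 9130213A22Rik and Amer2 (85.9 and 14.3).

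**Figure D5:**
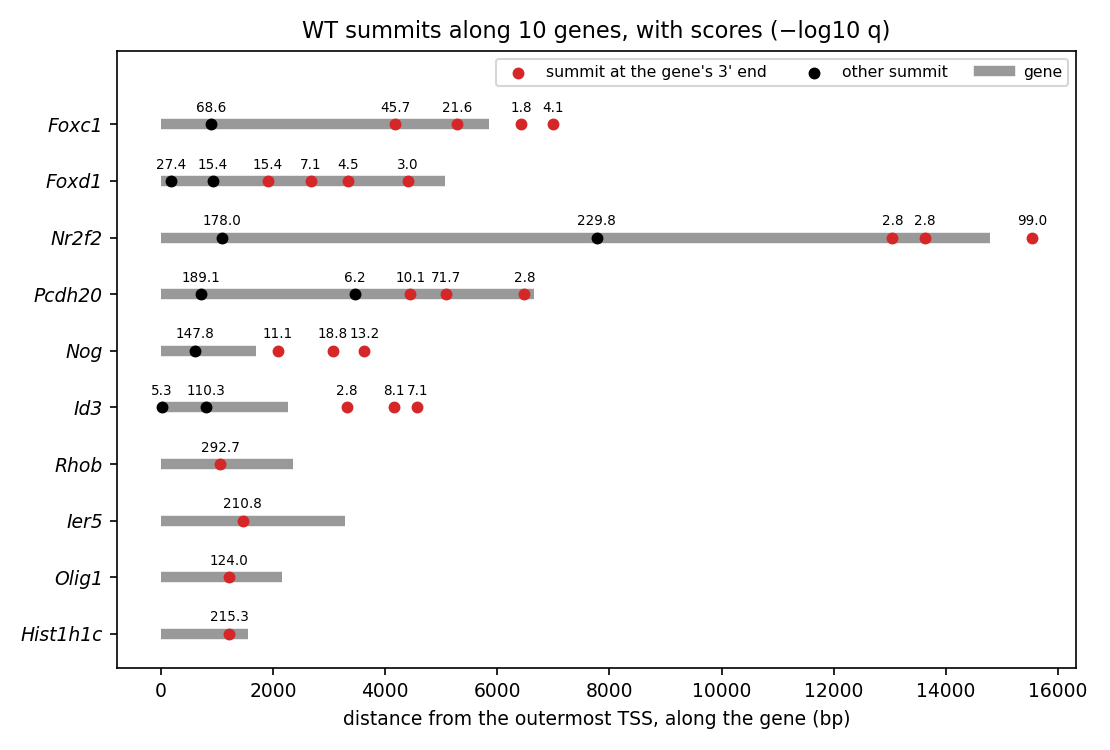
Positions of WT summits along 10 genes, in bp from the outermost TSS in the direction of transcription, with each score (−log10 of the q-value) above its point. Red points are summits at the gene's 3′ end, black points other summits and grey bars the genes; Foxc1 and Foxd1 have 4 red points each, and Rhob, Ier5, Olig1 and Hist1h1c have a single summit.

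Having a neighbour was about as frequent as at other summits outside promoters. Another WT summit lay within 3 kb of 197 of the 580 members (34.0%, 30.2% to 37.9%), against 26.8% of all summits and 31.4% of summits outside promoters. The share was 43.5% in 3′ UTRs, 28.01% downstream, 41.6% in introns, 34.5% in other exons and 14.9% between genes. The median distance from a member to the nearest other summit was 6016 bp.

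Of 67 replication-dependent histone genes, 53 (79.1%) had a promoter summit and 5 (7.46%) a summit at the 3′ end. The shares over all protein-coding genes were 65.2% and 1.8%. The linker histone genes Hist1h1c, Hist1h1b and Hist1h1d had scores of 215.3, 74.0 and 7.12, Hist1h2be had 82.7 and Hist1h4m 32.6. The Hist1h2be summit lay 405 bp from a RefSeq start on the same strand, under the symbol H2bc6. RefSeq names histone genes differently from GENCODE M21, so the symbol does not mean another gene.

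Immediate early genes are switched on within minutes of neuronal activity. Of 24 such genes, 22 (91.7%) had a promoter summit and 5 (20.8%) a summit at the 3′ end. Over all protein-coding genes these shares were 65.2% and 1.8%. Ier5 scored 210.8, and the 2 summits past Per1, a clock gene, scored 26.1 and 27.4, the first of them beside a tRNA gene. Egr3 (4.99), Btg2 (4.42) and Ier2 (3.47) were low.

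Among 136 ion channel genes, 2 (1.47%) had a summit at the 3′ end, beside 1.8% of all protein-coding genes: the voltage-gated potassium channels Kcna6 (87.4) and Kcna2 (29.7 and 28.7). Among glutamate receptor genes, Grik5 had one of 21.1 and Grin2d one of 6.20. Of 25 genes of synaptic adhesion and scaffolds, 1 (4%) had one, Shank1, a scaffold of the postsynaptic density, with 97.1. None of 23 neuropeptide precursor genes and none of 18 writers and erasers of H3K4 methylation had any, and 15 and 16 of them had promoter summits. Lists this short cannot show a share below the 1.8% of all protein-coding genes.

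Of the 19 cell type markers, 2 (10.5%) had a summit at the 3′ end, beside 1.8% of all protein-coding genes. Both are oligodendrocyte markers, and 2 genes are too few for a statement on a cell type. Olig1, a bHLH factor of that lineage, had 124.0 in its 3′ UTR (chr16:91270995), 1223 bp from its TSS, in a gene without introns. Mbp, the myelin basic protein, had 112.9 in a 3′ UTR, 1181 bp from one of its TSSs, and 182.9 at its promoter. The Mbp summit in the 3′ UTR lay 2942 bp before a transcript end and 80615 bp from the outermost TSS, in a gene of 110492 bp. It was therefore not at the outermost end of the gene.

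In the other lists the counts were small. Of 39 imprinted genes, 3 (7.69%) had a summit at the 3′ end, beside 1.8% of all protein-coding genes. They were H13 (88.8), Herc3 (37.9) and the lincRNA gene Mirg (11.5). Of 366 Zfp genes, 7 (1.91%) did, with 9 summits of which the highest was Zfp771 (97.5). Of 80 genes of cytosolic ribosomal proteins 1 did (1.25%, Rpl12), and of 57 clustered protocadherin genes 1 (1.75%, Pcdhgb6, 8.89). Of 1093 olfactory receptor genes 2 did (0.183%), Olfr750 (204.0) and Olfr539 (35.7).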

How the data were processed

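According to the Methods, the authors isolated nuclei from the amygdala, digested them with MNase and immunoprecipitated H3K4me3, with spiked-in synthetic nucleosomes. Bowtie was run on single-end reads against mm10 with at most 2 mismatches, reads mapping to 1 place were used, and MACS2 (2.1.0.20140616) called peaks relative to input DNA at a q-value below 0.1. For both WT mice together the authors deposited 1 list of 1-bp summits, each with a score from MACS2, taken here to be −log10 q because of its range (lowest value 1.18). The list holds 24162 summits, and 30 on other sequences were set aside. The depth behind a score is not given by the list, and peak widths are not known.

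From the list, each summit was placed with GENCODE M21 on GRCm38. GC, CpG, motifs and repeat-masked bases were read from the RefSeq GRCm38 genome, and tRNA genes and further transcript starts from its annotation. A promoter summit lay within 1 kb of a TSS of the gene. A summit belonging to several kinds of surroundings was counted in the first of tRNA gene, RefSeq start, own start and other start. Python 3.11.15, numpy 2.4.6, pandas 2.3.3, scipy 1.17.1 and samtools 1.23.1 were used, and the placement was tested on simulated data. No p-value is given, because summits of 1 pooled list are not replicates.

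The members, the gene lists and the alternatives were chosen with earlier results of these data known. The tRNA genes and the grouping by surroundings were chosen after the scores had been seen. Genes named are the 10 highest in 3′ UTRs and downstream, those with several summits (up to 10), the 5 highest in CpG ratio and 5 lowest in score, those in the gene lists, those nearest the 1 kb limit and the 5 highest near RefSeq starts. The downstream summits with printed CpG, and every summit beside a tRNA gene, were named after their values were seen. The count for the list of glutamate and GABA receptor genes is not reported here.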

Additional observations from a re-analysis of the deposited data

How the results depend on the processing

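The main values were 580 summits, a median score of 12.2, 23.3% in CpG-rich windows, 76.0% of genes with a promoter summit and 34.0% with another summit within 3 kb. Counting only summits over 3 kb from TSSs gave 366 summits, 23.0% of which had a neighbour. With a downstream region of 1 kb there were 348 (42.0% with a neighbour), and with 300 bp 257 (43.2%). Summits at or above the list median numbered 49, with a median score of 171.3, 55.1% CpG-rich, 57.5% of genes with a promoter summit and 14.3% with a neighbour. In this setting promoter summits and neighbours also had to reach the list median. The 57.5% and 14.3% are therefore not comparable with the main 76.0% and 34.0%. With protein-coding transcripts only, the median score was 15.1, 27.6% were CpG-rich and 38.4% had a neighbour. A CpG window of 1000 bp gave 17.1%. Promoters of 500 bp and 3 kb gave 63.5% and 88.3% of genes. After summits within 1 kb were joined, 24.5% had a neighbour, and a neighbour within 1 kb or 10 kb was found for 12.8% and 61.9%. The remaining alternatives moved no value by more than its counting interval (or 1.5 times, for the number), among them TSSs within 500 bp, added RefSeq starts, a CpG window of 300 bp and, chosen after seeing the data, leaving out members beside tRNA genes and UTRs of protein-coding transcripts only. Summits beside tRNA genes numbered 16 at 300 bp and 20 at 1 kb, against 18. Each of these alternatives changes by construction which summits or genes are counted.

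No paired analysis was possible because the 2 WT samples were deposited as 1 list and no groups were compared. For the same reason no replicate was left out. A position absent from the list is one not called at this depth and threshold. Whether a summit beside a tRNA gene, a RefSeq start or a short gene's TSS belongs to that start was not tested.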

Other observations

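Near tRNA genes, the summits at gene ends were part of a wider set. Of the 142 tRNA genes with a WT summit within 500 bp, the nearest summit lay between genes for 76, within 1 kb of a TSS for 30, downstream of a transcript end for 18, in an intron for 14, in a 3′ UTR for 3 and in another exon for 1. The median scores of summits this near a tRNA gene were 160.5 between genes (68 summits), 204.9 at promoters (26) and 49.2 in introns (13). Of the 580 summits at gene ends, 139 were assigned to genes of other types than protein-coding, among them 46 summits at lincRNA genes and 34 at processed pseudogenes.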
